A study of Mus musculus with 8 samples.

Results

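The genes described here encode the proteasome, its activators and assembly factors, and the heat shock and chaperonin families, measured by RNA-seq in 4 mouse leukaemias and 4 normal bone marrow populations. They were taken by name from the deposited table: symbols starting Psma to Psmg with a digit, Cct2 to Cct8, Tcp1, and the Hsp families, without names of pseudogenes. The rule found 62 of the 16434 listed genes (61 names, since Hspa14 has 2 entries). GENCODE vM21 holds 90 names of this form, of which 29 are not analysed here. Among these 29 are Psmb8 and Psmb10 of the immunoproteasome, Psmb5, Psmb6 and Psmb7 of the constitutive core, Psme1, Psmf1 and the ER chaperone Hspa5. The immunoproteasome is therefore represented by Psmb9 alone. Psmc3ip, Hspg2, Hspb11 and Hspbap1 match by name but belong to neither family, and are given apart.

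All 8 libraries came from bone marrow of C57BL/6 mice aged 8 to 10 weeks. The leukaemias arose under N-Myc overexpression and were sorted as GFP+ cells: B-ALL (B220+), T-ALL (CD3+), AML (Mac1+ Gr1+) and AUL (B220- CD3- Mac1- Gr1-). The labels list a surface gate for each leukaemia, whereas the protocol names only GFP for their isolation. Normal cells were taken through the same 4 gates without GFP, and are called normal B, T and myeloid cells and, for the gate negative for all 4 antigens, lineage-negative cells, which the protocol describes as depleted with a lineage antibody cocktail. How N-Myc was delivered, which promoter drove it, and how many mice gave each library are not given in the sources used here. With 1 library per group, a leukaemia and the normal cells of its gate form a pair, and only the 4 pairs together allow a test.

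Library totals recovered from the steps of the FPKM values lay between 33818567 fragments (AUL) and 52280219 (normal myeloid). FPKM counts fragments per kilobase of gene, scaled to the fragments of the library. For most values the gene length used matched the mean length of the gene's annotated transcripts. Comparisons between different genes therefore depend in part on the annotated lengths. Mycn, the overexpressed gene, had 1587, 843, 1858 and 719 FPKM in the leukaemias and 1.66, 0.594, 0.518 and 5.24 in the normal cells. Here and below, leukaemias are given in the order B-ALL, T-ALL, AML, AUL, and normal cells in the order B, T, myeloid, lineage-negative. Some sorts went against their markers. Itgam, which encodes Mac1, had only 1.63 FPKM in AML, and the CD3 chain gene Cd3d had 276 in AUL. Of 11 neutrophil markers, Itgam among them, 10 were above 1 FPKM in AML and 11 in each of the other libraries. Their sum was 10166 FPKM in AML, 11733 in B-ALL, 1624 in T-ALL and 2251 in AUL. The normal lineage-negative library held basophil RNA (Prss34 1436 FPKM) and the normal B library that of plasmacytoid dendritic cells (Siglech 361). In the lineage-negative library 7 plasma cell markers summed to 1059 FPKM, against 134 to 261 in the other normal libraries and 83.8 to 186 in the leukaemias. The normal myeloid library stands apart most: its 11 neutrophil markers summed to 185448 FPKM, against 1085 to 21141 in the other normal libraries and 1624 to 11733 in the leukaemias. The main counts are therefore also given without the myeloid pair, without the lineage-negative pair or under median-ratio scaling, which divides normal myeloid values by 0.585 and those of the other libraries by 0.962 to 1.18. The proliferation gene Mki67 had 160.4, 129.6, 80.8 and 129 FPKM in the leukaemias and 112, 34.5, 92.0 and 136 in the normal cells, so it did not separate the groups.

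The proteasome degrades proteins tagged with ubiquitin. Its 20S core is a barrel of alpha and beta rings, and its 19S cap holds ATPases that unfold the substrate and non-ATPase subunits that bind and deubiquitinate it. In cells exposed to interferon, catalytic subunits such as Psmb9 replace constitutive ones, and the activator Psme1-Psme2 binds the core, which alters the peptides offered on MHC class I. Chaperones fold new and damaged proteins: the CCT ring folds actin and tubulin, Hsp70 and Hsp90 act in the cytosol, and Hspd1 with Hspe1 and Hspa9 act in mitochondria. Many of these genes are known for high levels in cells that grow and make protein quickly.

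Most of these genes had higher levels in the leukaemias. Of the 62, 57 had 1 FPKM or more in 2 or more libraries and were tested. For 44 of the 57 the leukaemia was higher in 4 of 4 pairs, against 25.9% of the 11071 tested genes. For 34 of them all 4 leukaemias lay above all 4 normal libraries (16% of tested genes). For 3 genes, Psmb9, Psme2 and Psme2b, the leukaemia was lower in 4 of 4 pairs (24.4% of tested genes). The myeloid pair of Psme2b was nearly level, at 59.0 FPKM in AML and 59.6 in normal myeloid cells. For none of the 57 did all 4 leukaemias lie below the normal libraries (10.5%). The median of the mean log2 difference over the 4 pairs was 1.03 for the 57 and -0.08 for all tested genes. Differences are leukaemia minus normal on the log2(FPKM + 1) scale, which understates low genes.

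Single genes seldom passed the test across all genes, which has 3 residual degrees of freedom. With limma, the gate as a block and Benjamini-Hochberg adjustment, 4 of 57 were higher in leukaemia at an adjusted p under 0.05, and none was lower. Over all tested genes 1.26% were higher and 2.42% lower. The 4 were the proteasome assembly factor Psmg1, the mitochondrial chaperonin Hspd1, the CCT subunit Cct3 and the inducible Hsp90 gene Hsp90aa1. Without adjustment, limma gave p under 0.05 for 37 of the 57 as higher and for none as lower (17.6% and 17.8% of tested genes). The 4 calls are close to the threshold. With median-ratio scaling or a pseudocount of 0.1 they were joined by Cct6a, Cct7, Cct8 and Hspbp1, 8 in all. With any pair left out, a common FPKM sum, no filter on low values or no gate block, limma called 0 of these genes.

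**Figure D1:**
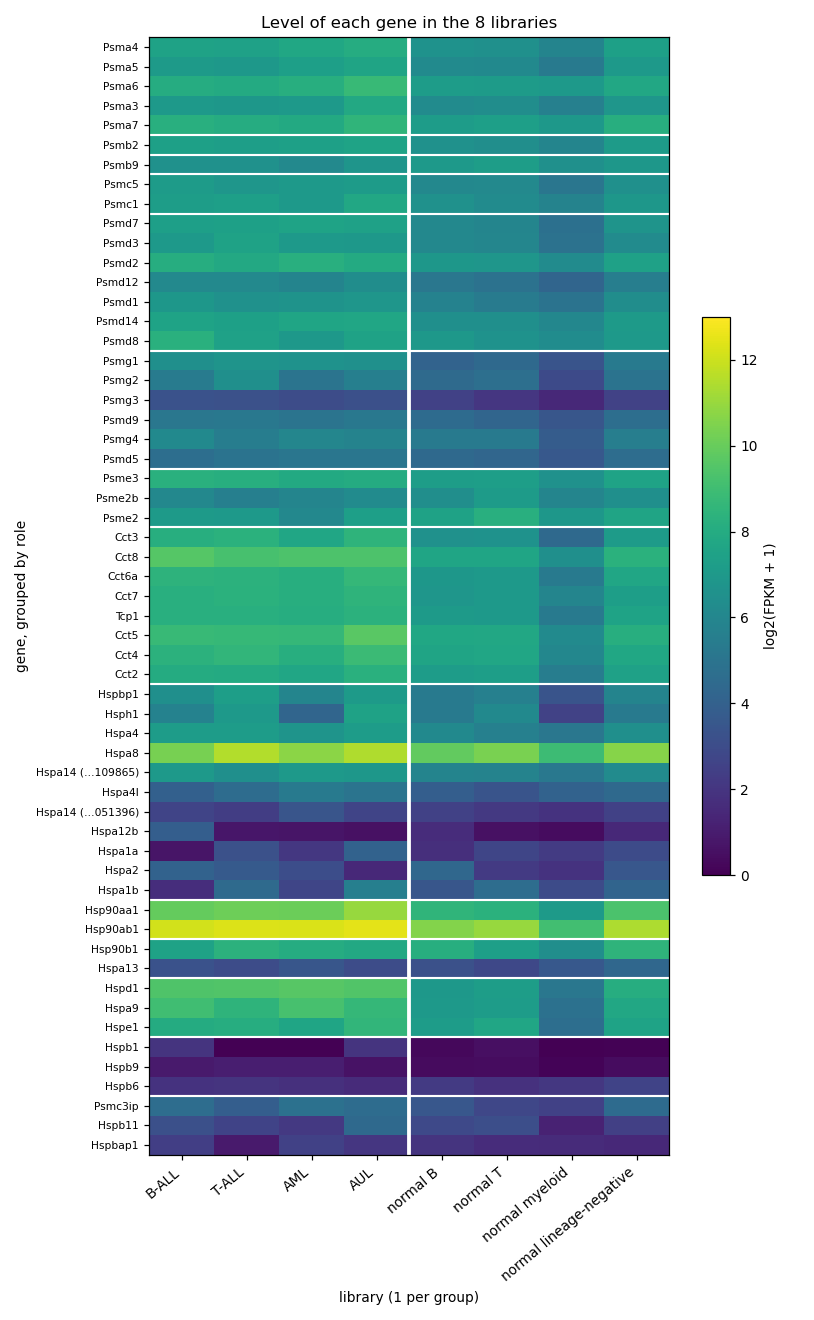
Heat map of log2(FPKM + 1) for the 57 tested genes (rows, grouped by role between white lines) in the 8 libraries (columns, 1 library per group, leukaemias left of the thick line). Most rows are brighter in the 4 leukaemias and darkest in normal myeloid cells, which were the lowest normal library for 52 of the 57 genes.

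The normal libraries varied more than the leukaemias. Normal myeloid cells had the lowest level of the 4 normal libraries for 52 of 57 genes, where 56.4% of tested genes had it. Under median-ratio scaling that count was 30, where 41.7% of tested genes had it. Normal lineage-negative cells had the highest level for 46 of 57 (30.7% of tested genes), and among the leukaemias AUL was highest for 29 (19.6%). The log2 range was narrower over the 4 leukaemias than over the 4 normal libraries for 45 of 57 genes (64.8% of tested genes), and without the myeloid pair for 33 (56.8%), close to the background. Psmd7 and Hspd1 had the narrowest ranges over the leukaemias among the 57, 0.19 and 0.23 on the log2 scale, against 1.95 and 2.96 over the normal libraries.

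By pair, at least 2-fold higher levels were most frequent in AML. A gene counted when the log2 difference was at least 1 and FPKM at least 1 in the higher library. In AML against normal myeloid cells 43 of 55 were higher and 0 lower, with backgrounds of 43.3% and 26.7%. In B-ALL 26 of 57 were higher and 2 lower (18.2% and 21.9%), and in T-ALL 24 of 55 and 2 (22.1% and 24%). In AUL 17 of 57 were higher and 4 lower (13.6% and 29.5%). Median-ratio scaling gave 21 higher and 5 lower in AML (24% and 42.7%), 16 higher in B-ALL (14.3%), 14 in T-ALL (15.7%) and 17 in AUL (14.1%). It lowered the median over all tested genes from -0.08 to -0.31 and that of the 57 from 1.03 to 0.70. Under this scaling the leukaemia was higher in 4 of 4 pairs for 39 of 57 genes (21.5% of tested genes). All 4 leukaemias then lay above all 4 normal libraries for 28 of 57 (12.5%). Without the myeloid pair the leukaemia was higher in 3 of 3 pairs for 44 of 57 genes (28.2%), and the 3 leukaemias lay above the 3 normal libraries for 36 (20.5%). Without the lineage-negative pair these counts were 45 (32.4%) and 38 (23.2%). These are bulk samples, in which fewer cells of a type and less RNA per cell cannot be told apart. Normal myeloid cells hold most of the neutrophil RNA, and its part in the AML differences was not tested.

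**Figure D2:**
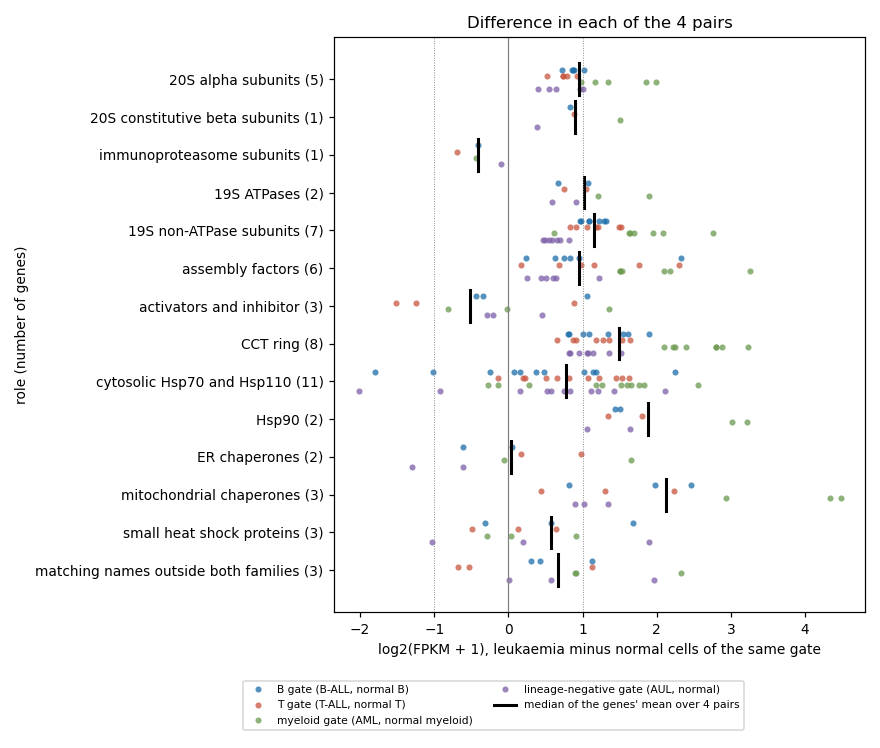
Log2 difference (leukaemia minus normal cells of the same gate, log2(FPKM + 1)) of each tested gene in each of the 4 pairs, by role; colours mark the pairs and black bars the median of the genes' means over 4 pairs. The bars stand at 2.13 for mitochondrial chaperones, 1.88 for Hsp90 and 1.49 for the CCT ring, and left of 0 for Psmb9 (-0.41) and the activators (-0.52).

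Core and cap subunits of the proteasome were modestly higher in every leukaemia, and none passed limma alone. The 15 tested 20S and 19S subunits other than Psmb9 were all higher in 4 of 4 pairs, with means from 0.78 (Psma7) to 1.56 (Psmd7) and a median of 1.06. For 12 of the 15 the leukaemias lay above all normal libraries. Without the myeloid pair their median was 0.87, and under median-ratio scaling 0.70.

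Of the alpha ring, which gates the entry to the core, 5 of 6 listed genes were tested, with a median of 0.95. Psma4 had 179, 175, 213 and 264 FPKM in the leukaemias and 98.3, 91.4, 58.1 and 169 in the normal cells (mean log2 difference 1.07, SE 0.35, limma adjusted p = 0.0868). Its lowest leukaemia, T-ALL, was only just above the lineage-negative library. Psma5 had 133, 119, 163 and 189.6 and 72.3, 71.2, 40.4 and 130.0 (1.03, SE 0.37, limma adjusted p = 0.0986), and here T-ALL lay below the lineage-negative library, so that the groups overlapped. Psma3 had 129, 118, 128 and 228 and 77.6, 82.1, 49.99 and 113 (0.90, limma adjusted p = 0.102). Its AUL value was well above those of the other 3 leukaemias, which lay close together. Psma7, the alpha subunit with the highest FPKM in 4 of 8 libraries, had 290.1, 265, 239 and 369 and 143, 158, 121 and 279 (0.78, limma adjusted p = 0.135). The order of the subunits by FPKM was nearly fixed: Psma6 and Psma7 held the first and second rank in all 8 libraries, Psma4 came next, and Psma3 and Psma5 were last. Psma8, the alpha subunit of testis proteasomes, had 0.110, 0.0273, 0 and 0 and 0.207, 0.0958, 0.102 and 1.83, so its transcripts were seen mainly in lineage-negative cells, where 1.83 FPKM rests on 86 fragments.

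Psmb2, a constitutive subunit without catalytic activity, had 168, 157, 169 and 183 FPKM in the leukaemias and 94.0, 84.7, 59.0 and 140.1 in the normal cells (0.90, SE 0.34, limma adjusted p = 0.110). The 4 leukaemias were close to each other and all above the normal libraries. The cap ATPases Psmc5 and Psmc1 were also above all normal libraries in every leukaemia, with AUL highest for Psmc1. Psmc5 had 139.8, 114, 128 and 138 against 65.9, 67.3, 33.7 and 91.5 (1.08, limma adjusted p = 0.0871), and Psmc1 had 148, 160.1, 126 and 219.7 against 93.2, 77.1, 54.3 and 116 (0.96, limma adjusted p = 0.0868).

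The 7 non-ATPase cap subunits had a median of 1.16, and for 6 of them the groups did not overlap. Psmd7, a partner of the cap's deubiquitinase, had 162, 167, 186 and 172 FPKM in the leukaemias and 66.1, 58.9, 26.6 and 106 in the normal cells (1.56, SE 0.41, limma adjusted p = 0.0625). The leukaemias were nearly level, and each was well above the highest normal library, lineage-negative cells. Psmd3, a scaffold subunit, had 132, 176, 127 and 123 against 66.1, 61.0, 29.2 and 77.5 (1.31, limma adjusted p = 0.0656). Psmd14, the deubiquitinase that removes ubiquitin chains at the cap, had 188, 168, 198 and 205 against 88.1, 88.8, 63.2 and 136 (1.06, limma adjusted p = 0.0830). Psmd8 had 299.8, 173, 119.9 and 182 against 120.1, 96.8, 77.8 and 128 (0.81, limma adjusted p = 0.124): B-ALL was far above the others, and AML lay among the normal values. The other 3 were Psmd1 (1.11), Psmd2 (1.20) and Psmd12 (1.16). Psmd2 ranked first or second of the 7 in all 8 libraries and Psmd12 last in all of them (both named after their values were seen).

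Assembly factors, which build the ring and cap but are absent from the finished proteasome, held the only proteasome gene that passed limma. Psmg1 (ENSMUSG00000022913, chromosome 16, 95979933 to 95990960, mm10) pairs with Psmg2 to assemble the alpha ring. It had 88.1, 106, 98.4 and 92.3 FPKM in the leukaemias and 16.8, 20.7, 9.43 and 39.2 in the normal cells. The 4 leukaemias lay close together, all above the highest normal library, lineage-negative cells. The folds were 5.25 (95% counting interval 4.78 to 5.76) in B-ALL, 5.13 (4.71 to 5.60) in T-ALL, 10.4 (9.39 to 11.6) in AML and 2.36 (2.20 to 2.52) in AUL. Its mean log2 difference was 2.27 (SE 0.41, limma adjusted p = 0.0418). With a pair left out it was 1.95 to 2.63, with limma adjusted p from 0.0598 to 0.124.

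The partner Psmg2 had 42.1, 88.8, 31.4 and 47.9 FPKM against 21.2, 25.5, 6.57 and 30.3 (1.36, SE 0.38, limma adjusted p = 0.0690), with T-ALL 1.85-fold above the next leukaemia. Psmg4, which forms another assembly pair with Psmg3, had 71.6, 44.6, 61.6 and 55.5 against 39.9, 39.5, 12.9 and 46.4 (0.86, limma adjusted p = 0.180). T-ALL and AUL stood close to the normal cells of their gates, and most of the mean came from the myeloid pair. Psmd5, a chaperone of cap assembly, had 24.6, 29.9, 33.0 and 33.3 against 20.6, 18.3, 11.05 and 24.3 (0.71, limma adjusted p = 0.197). Its B-ALL value was almost that of lineage-negative cells. Psmg3 (1.00) and the cap assembly chaperone Psmd9 (0.91) were also higher in 4 of 4 pairs without overlap.

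Psmb9 and the interferon-linked activator Psme2 went the other way from the core, without passing limma. Psmb9 (ENSMUSG00000096727, chromosome 17, 34181988 to 34187764, mm10) is a catalytic subunit of the immunoproteasome. It had 95.04, 93.4, 67.7 and 108 FPKM in the leukaemias and 127, 152, 91.9 and 115 in the normal cells. Each leukaemia was below the normal cells of its gate, but the groups overlapped, since AUL and both lymphoid leukaemias exceeded normal myeloid cells. The folds were 0.748 (0.719 to 0.778) in B-ALL, 0.615 (0.591 to 0.639) in T-ALL, 0.736 (0.704 to 0.769) in AML and 0.937 (0.899 to 0.976) in AUL, all counting intervals under 1. The mean log2 difference was -0.41 (SE 0.31, limma adjusted p = 0.342). Psmb9 shares 212 exon bases with Tap1 on the opposite strand, and whether fragments were counted by strand is not given in the sources used here.

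Psme2 (ENSMUSG00000079197, chromosome 14, 55587441 to 55591113) encodes a subunit of the interferon-inducible activator and had 134, 124, 65.3 and 159 FPKM in the leukaemias against 181, 296, 116 and 194 (-0.70, SE 0.34, limma adjusted p = 0.171). T-ALL differed most from its normal cells (-1.25) and AUL least (-0.29). Psme2b, a near copy of Psme2 (68.7% of its 50-base words also occur in Psme2), had 65.8, 48.1, 59.0 and 77.3 against 83.8, 139, 59.6 and 89.5 (-0.52, limma adjusted p = 0.311), and fragments may be split between the copies. The Psme2b fold in AML was 0.991, and its counting interval, 0.935 to 1.05, included 1. Psme3, which encodes a nuclear activator that interferon does not induce, had 309, 286, 239.9 and 254 against 148, 154, 93.3 and 186 (0.94, SE 0.34, limma adjusted p = 0.101), with all leukaemias above all normal libraries. Under median-ratio scaling the leukaemias lay below all normal libraries for Psmb9, Psme2 and Psme2b, and for the small heat shock gene Hspb6, 4 of 57 where 14.9% of all tested genes did so. With a common FPKM sum this held for 0 of 57 (9.24% of tested genes), and 2 of 57 (23.8% of tested genes), Psmb9 and Psme2, were lower in 4 of 4 pairs.

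Ratios within a library do not depend on its scaling. The ratio of Psmb9 to Psmb2 was 0.565, 0.596, 0.400 and 0.589 in the leukaemias and 1.35, 1.79, 1.56 and 0.823 in the normal cells, so that the leukaemias all lay below the normal libraries. The mean log2 difference was -1.32 ± 0.63 (SD, n = 4 pairs; exact two-sided sign-flip permutation p = 0.125), lower in 4 of 4 pairs. The ratio of Psme2 to Psme3 was 0.433, 0.433, 0.272 and 0.625 against 1.23, 1.92, 1.24 and 1.05, again without overlap. Its mean log2 difference was -1.65 ± 0.68 (SD, n = 4 pairs; exact permutation p = 0.125, adjusted over both ratios 0.125). The value 0.125 is the smallest that 4 pairs can give, so neither ratio could reach 0.05. Both ratios were chosen after the values were seen, and Psmb2 is not the subunit that Psmb9 replaces.

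**Figure D3:**
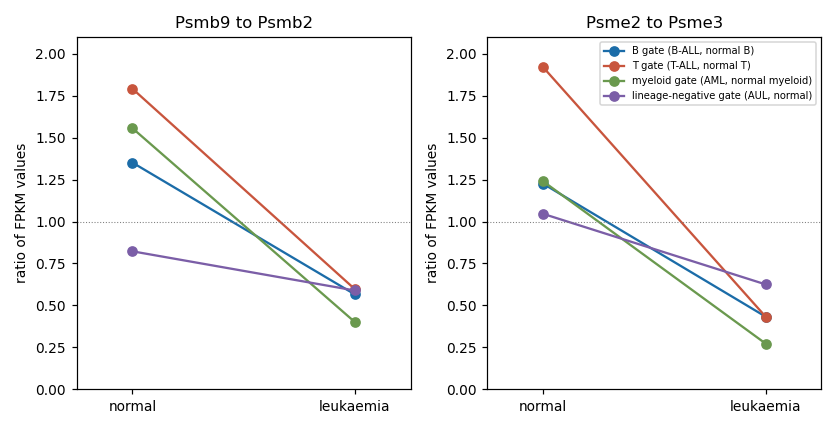
Ratio of FPKM values within each library for Psmb9 to Psmb2 (left) and Psme2 to Psme3 (right); each line joins the normal and the leukaemia library of 1 gate. All 4 lines run downward in both panels, to between 0.400 and 0.596 (left) and 0.272 and 0.625 (right) in the leukaemias, and the lineage-negative line is the least steep.

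Of the other interferon and antigen processing genes, 15 of 20 were lower in 4 of 4 pairs, where 24.4% of all tested genes were. All 20 genes of that list were measured. By limma 5 passed as lower and none as higher (2.42% and 1.26% of tested genes), and the median mean difference was -1.57, against -0.41 for Psmb9 and -0.70 for Psme2. Among the 5 were the transcription factors Irf7 (-3.63, limma adjusted p = 0.0344), Irf8 (-2.80, 0.0326) and Irf9 (-1.88, 0.0451), and tapasin, Tapbp (-1.55, 0.0457). Without the T, the myeloid or the lineage-negative pair limma called 0 of the 20, and without the B pair 2, Irf7 and Irf8. Irf8, also a factor of plasmacytoid dendritic cells, had 137, 27.0, 3.47 and 63.0 against 965, 91.1, 58.5 and 485. That cell type's 7 markers, Irf8 among them, summed to 2577 FPKM in normal B cells and 158 to 915 in the other normal libraries. In the leukaemias they summed to 93.4 to 286. Because the sum holds Irf8 itself, the 2 are not independent. The part of these cells in the Irf8 difference was not tested. H2-D1 of MHC class I (-2.02, limma adjusted p = 0.0577) and Gbp2 (-2.44, 0.0608) were lower in 4 of 4 pairs without passing. Tap1, the peptide transporter gene beside Psmb9, had 66.4, 49.7, 25.7 and 48.8 against 117, 153, 58.0 and 85.0 (-1.09, limma adjusted p = 0.0761).

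The ubiquitin-proteasome companions had no common direction: of 24 genes 11 were measured, 0 passed limma in either direction and the median was 0.00. Usp14, a deubiquitinase of the cap, was higher in 4 of 4 pairs (1.62, limma adjusted p = 0.0657), as were Uchl5, another one (1.25, 0.0795), and the shuttle factor Rad23b (1.21, 0.0870).

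The promoters of 2 proteasome genes are shown as examples because they hold the letters CACGTG, the canonical E-box that Myc family proteins bind, in genes whose leukaemia levels all lay above the normal ones. Psmd9, which is not shown, shares both features. Windows of 300 bases, from 250 before to 50 after the start, were matched for 50 of the 61 names (58 windows, RefSeq, GRCm38.p6). The motif reads the same on both strands and was in 7 of these windows (12.1%, 6 genes: Hspbap1, Hspd1, Hsph1, Psma4, Psmd9 and Psme3), against 7.15% of all 32851 windows. Capitals mark the motif, and sequences run 5′ to 3′ on the gene's strand, for Psma4 at chr9:54950707-54950736, plus strand, and for Psme3 at chr11:101316083-101316212, plus strand. Both windows of Hsph1 hold the same site, so it counts once as sequence. All 30 bases shown for Psma4 lie in annotated exons (GENCODE vM21, either strand), and 0 of those shown for Psme3. A match describes letters only.
Psma4: ttctgcacagtcCACGTGggcagactgagc
Psme3: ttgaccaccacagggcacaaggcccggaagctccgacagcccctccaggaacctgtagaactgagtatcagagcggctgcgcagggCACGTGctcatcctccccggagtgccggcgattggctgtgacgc

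The CCT ring was higher throughout. All 8 listed subunits were higher in 4 of 4 pairs, and for all 8 the leukaemias lay above all normal libraries, with means from 1.13 (Cct2) to 1.96 (Cct3) and a median of 1.49. Without the myeloid pair the median was 1.20. Cct3 (ENSMUSG00000001416, chromosome 3, 88297116 to 88321767, mm10) had 286, 311, 203 and 352 FPKM in the leukaemias and 93.1, 99.4, 20.8 and 137 in the normal cells. Its leukaemia levels ranged from AML to AUL, both well above lineage-negative cells. The mean log2 difference was 1.96 (SE 0.41, limma adjusted p = 0.0492), and 1.53 without the myeloid pair (limma adjusted p = 0.0586, and up to 0.13 with another pair left out).

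Cct8 had 753, 589, 662 and 649.7 FPKM in the leukaemias and 202, 202, 89.2 and 312 in the normal cells (1.84, SE 0.41, limma adjusted p = 0.0531). B-ALL was highest, and every leukaemia was well above lineage-negative cells, the highest normal library. Cct4 had 331, 376, 282 and 456 against 189, 206, 64.8 and 216 (1.21, limma adjusted p = 0.0787), and Cct2 had 258, 248, 208 and 303 against 146, 157, 44.0 and 171 (1.13, limma adjusted p = 0.0922). In both, 3 normal libraries lay close together and normal myeloid cells far below them. The means of Cct6a, Cct7, Tcp1 and Cct5 lay between, from 1.45 (Cct5) to 1.67 (Cct6a). The FPKM of the subunits, which stand in 1 ring at equal numbers, were not equal. The highest exceeded the lowest 2.38-fold to 3.26-fold within a leukaemia and 2.20-fold to 4.28-fold within a normal library. These folds depend on the gene lengths used, such as 977.6 bases for Cct8 and 1674.3 for Cct3. In AUL Cct8 had 21480 fragments and Cct3 19956, at 649.7 and 352 FPKM. By FPKM, Cct5 or Cct8 was highest in all 8 libraries. Cct5 was highest in AUL, at 818 FPKM, and in normal B and T cells.

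Prefoldin and CCT cofactors, which hand substrates to the ring, had a smaller median. Of 12 genes 10 were measured, none passed limma and the median was 0.72. Uri1, a prefoldin-like protein, had the largest mean among them (1.62, limma adjusted p = 0.0648), followed by Pfdn1 (1.01, 0.0919), Pfdn4 (0.93, 0.117) and Pfdn2 (0.85, 0.126).

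**Figure D4:**
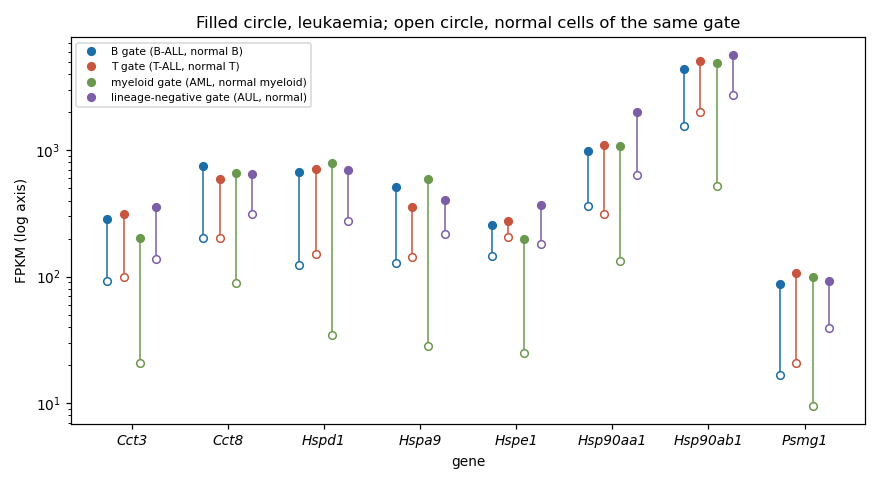
FPKM (log axis) of 8 chaperone and assembly genes; filled circles are leukaemias, open circles the normal cells of the same gate, joined by a line, and colours mark the gates. Every filled circle lies above its open partner, and the myeloid gate has the longest line for each gene, as for Hspd1 (793 FPKM in AML, 34.5 in normal myeloid cells).

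Mitochondrial chaperones had the highest median of all roles, 2.13, and 1.39 without the myeloid pair. Hspd1 (ENSMUSG00000025980, chromosome 1, 55077835 to 55088243, mm10), the barrel of the mitochondrial chaperonin, had 678, 712, 793 and 699.8 FPKM in the leukaemias and 123, 151, 34.5 and 275 in the normal cells. The leukaemias were nearly level, and all far above the highest normal library, lineage-negative cells. The folds were 5.52 (5.37 to 5.67) in B-ALL, 4.71 (4.59 to 4.83) in T-ALL, 23.0 (22.1 to 24.0) in AML and 2.54 (2.49 to 2.59) in AUL. Its mean log2 difference was 2.63 (SE 0.53, limma adjusted p = 0.0451), the largest of the 57 genes, and 2.01 without the myeloid pair. With a pair left out its limma adjusted p was 0.0586 to 0.124.

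Hspa9, the mitochondrial Hsp70 that draws proteins through the import channel, had 509.7, 354, 587 and 406 FPKM against 129, 143, 28.0 and 218 (2.13, SE 0.58, limma adjusted p = 0.0641). AML was highest and the normal myeloid library lowest, so the myeloid pair differed by 4.34. Hspe1, the lid of the Hspd1 barrel, had 254, 278, 198 and 369 against 144, 205, 24.9 and 182 (1.30, SE 0.47, limma adjusted p = 0.102). AML lay below normal T cells, so the groups overlapped although both genes start side by side. In FPKM, Hspd1 exceeded Hspe1 in all 4 leukaemias, 1.90-fold to 4.01-fold, while in normal B and T cells Hspe1 was higher. In fragments Hspd1 was higher there too, with 6232 against 4999 in normal B and 7114 against 6594 in normal T cells. Which gene is higher in those cells therefore depends on the gene lengths used, 1271 bases for Hspd1 and 869 for Hspe1. Hspd1 and Hspe1 share 112 exon bases on opposite strands, and 38.0% of the 50-base words of Hspd1 also occur in the pseudogene Hspd1-ps3, so fragments could be split.

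Of the other mitochondrial chaperones and proteases 10 of 15 were measured, 0 passed limma and the median was 1.14. Trap1, the mitochondrial Hsp90, had 331, 285, 508 and 300.0 FPKM against 104, 109, 25.8 and 149.9 (2.07, limma adjusted p = 0.0641). The protease genes Lonp1 (1.89, 0.0586) and Clpp (1.81, 0.0862) and the disaggregase gene Clpb (1.80, 0.0586) were also among those with the largest means.

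Hspd1 and Hspe1 lie head to head on chromosome 1, and a stretch between a RefSeq start of each is shown because it holds the heat shock element GAANNTTCNNGAA, searched on both strands, which heat shock factors bind. It was in 4 windows of 3 genes (Hspd1, Hspe1 and Hsph1; 6.90% of 58 windows, against 0.603% of all windows). The names without a window, which were not searched, include Hsp90aa1, Hsp90ab1, Hspa8, Hspa9 and Cct4. The 2 overlapping matches of Hspd1 and Hspe1 are the same bases of the genome, so they count once as sequence. Hsph1 has 2 overlapping windows with 1 match, which lies after the start in both. All 30 bases of each stretch shown lie in annotated exons (GENCODE vM21, either strand). Capitals mark the element (both overlapping matches in Hspe1), for Hspe1 at chr1:55088053-55088082, plus strand, and for Hsph1 at chr5:149636287-149636316, minus strand (GRCm38.p6).
Hspe1: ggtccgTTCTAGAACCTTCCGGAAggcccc
Hsph1: agtaaaatgctgcagaTTCTGGAAAGTTCt

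The Hsp90 genes were higher in every pair and ranked among the 3 highest genes of the 57 in all 8 libraries, with Hspa8. Hsp90ab1, the constitutive form, had 4403, 5115, 4886 and 5693 FPKM in the leukaemias and 1556, 2023, 525 and 2719 in the normal cells (1.78, SE 0.57, limma adjusted p = 0.0851). Hsp90aa1 (ENSMUSG00000021270, chromosome 12, 110690605 to 110702728, mm10), the inducible form, had 979, 1105, 1077 and 2009.5 against 360.3, 315, 133 and 642. Both genes were higher in every leukaemia than in any normal library, and AUL had 1.82 times the Hsp90aa1 level of the next leukaemia. The folds of Hsp90aa1 were 2.72 (2.67 to 2.76), 3.50 (3.44 to 3.57), 8.12 (7.94 to 8.31) and 3.13 (3.09 to 3.17), in the order of the leukaemias. Its mean log2 difference was 1.98 (SE 0.43, limma adjusted p = 0.04997, and 0.0586 to 0.139 with a pair left out). The ratio of Hsp90aa1 to Hsp90ab1 was 0.222, 0.216, 0.220 and 0.353 in the leukaemias and 0.232, 0.156, 0.252 and 0.236 in the normal cells, so AUL had the largest share of the inducible form.

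Co-chaperones had a median of 1.18, with 19 of 27 genes measured. By limma 3 passed as higher and none as lower (1.26% and 2.42% of tested genes). Without the T, the myeloid or the lineage-negative pair limma called 0 of the 19, and without the B pair 1, Bag2. Bag2, which regulates Hsp70 and its partner ligase, had 66.6, 45.1, 25.5 and 46.9 FPKM in the leukaemias and 3.81, 2.91, 1.00 and 11.4 in the normal cells (3.26, SE 0.46, limma adjusted p = 0.0326). Bag3, a partner of Hsp70 in selective autophagy, had 10.4, 8.88, 15.7 and 27.0 against 0.705, 2.47, 2.12 and 4.70 (2.24, SE 0.44, 0.0444 by limma). St13, which links Hsp70 to Hsp90, had 288, 345, 218 and 381 against 105, 107, 37.7 and 133 (1.78, SE 0.35, 0.0428 by limma). In all 3 genes the leukaemias lay above every normal library. Fkbp4, a co-chaperone of Hsp90 with steroid receptors, had 303, 348, 313 and 352 against 106, 108, 27.9 and 181 (1.89, limma adjusted p = 0.0580). Dnajb1, an Hsp40 that heat shock induces, was lower in 4 of 4 pairs, with 24.7, 29.9, 22.6 and 43.9 against 42.4, 60.6, 34.1 and 44.1 (-0.58, limma adjusted p = 0.237; named after its values were seen).

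Cytosolic Hsp70 and Hsp110 genes split into a part that was higher in every pair and a part that varied by library. Of 13 listed, 11 were tested, 7 were higher in 4 of 4 pairs and for 3 the groups did not overlap (Hspbp1, Hspa4 and Hspa14). None passed limma, and the median was 0.77. Hspbp1, a nucleotide exchange factor of Hsp70, had 88.2, 156, 59.6 and 135 FPKM in the leukaemias and 38.2, 49.9, 9.32 and 57.7 in the normal cells (1.64, SE 0.36, limma adjusted p = 0.0524). Hsph1, an Hsp110 that heat shock induces, had 53.0, 126, 17.7 and 177 against 40.6, 70.9, 4.97 and 40.2 (1.24, SE 0.40, limma adjusted p = 0.0832). AML and normal myeloid cells were both low for it and AUL was highest, so the groups overlapped. Hspa8, the constitutive Hsp70 and the second in level after Hsp90ab1 in all 8 libraries, had 1296, 2866, 1692 and 2837 against 928, 1358, 475 and 1591 (1.06, limma adjusted p = 0.144). T-ALL and AUL were high and nearly equal, and B-ALL lay below normal T and lineage-negative cells. The Hsp110 relatives Hspa4 and Hspa4l had means of 1.22 and 0.77, and Hspa4l was not separated from the normal cells, since B-ALL (14.6 FPKM) lay below lineage-negative cells (21.1). The main Hspa14 entry (ENSMUSG00000109865) had 129.8, 87.0, 123 and 116 against 58.2, 55.1, 35.7 and 77.5. The other entry (ENSMUSG00000051396) overlaps it on the same strand and had 2.76 to 9.74 FPKM in the 8 libraries.

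The heat-inducible pair Hspa1a and Hspa1b differed in direction between the pairs. Hspa1b (ENSMUSG00000090877, chromosome 17, 34956436 to 34959238, mm10) had 2.20, 21.6, 5.54 and 48.3 FPKM in the leukaemias and 10.1, 23.9, 6.94 and 17.3 in the normal cells. B-ALL was the lowest and AUL the highest of the 8 libraries, and the fold was 0.217 (0.189 to 0.248) in B-ALL and 2.79 (2.65 to 2.94) in AUL. Hspa1a (ENSMUSG00000091971, chromosome 17, 34969190 to 34972156) had 0.645, 8.46, 3.38 and 16.2 against 2.34, 5.64, 3.82 and 6.94, with the same lowest and highest library and folds of 0.275 (0.213 to 0.354) and 2.34 (2.16 to 2.54). The mean differences were -0.20 and 0.12, with limma adjusted p = 0.787 and 0.862. The genes are near copies (58.8% of the 50-base words of Hspa1a occur in Hspa1b), so fragments may be split between them. Their promoters are shown because they too are nearly the same. Of the last 130 bases before the start, 129 are identical. Capitals mark GAANNTTC, the GAA unit of the heat shock element facing its inverse, found in 11 of 58 windows (18.97%, against 7.86% of all windows; windows with the longer element are included). Hspa1a lies at chr17:34972157-34972286, minus strand, and Hspa1b at chr17:34959239-34959368, minus strand (GRCm38.p6).
Hspa1a: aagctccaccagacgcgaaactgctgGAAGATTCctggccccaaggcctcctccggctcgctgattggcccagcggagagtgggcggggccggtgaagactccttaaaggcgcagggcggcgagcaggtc
Hspa1b: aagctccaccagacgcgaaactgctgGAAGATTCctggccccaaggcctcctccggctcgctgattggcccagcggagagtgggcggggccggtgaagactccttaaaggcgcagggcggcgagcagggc

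Hspa2, an Hsp70 best known from testis, also differed in sign between the pairs, a difference that was not tested. It had 16.04, 11.8, 7.39 and 1.81 FPKM in the leukaemias and 19.3, 3.68, 2.72 and 10.4 in the normal cells. T-ALL (3.20-fold, 2.84 to 3.61) and AML (2.72-fold, 2.40 to 3.09) were above their normal cells, and AUL was below (0.174-fold, 0.146 to 0.206). Hspa12b, a distant Hsp70 known from endothelium and named after its values were seen, had 13.99, 0.746, 0.645 and 0.513 against 2.16, 0.523, 0.351 and 1.86. B-ALL was 6.46-fold (5.51 to 7.62) above normal B cells and far above every other library. Of 7 measured endothelial and stromal markers 2 reached FPKM of 1 in B-ALL, with a sum of 32.9, against 3 and 109 in normal B cells. Their part in the Hspa12b level was not tested. Its relative Hspa12a did not reach the filter and had 2.84 FPKM in B-ALL, 0.612 in its normal counterpart and at most 0.650 elsewhere.

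**Figure D5:**
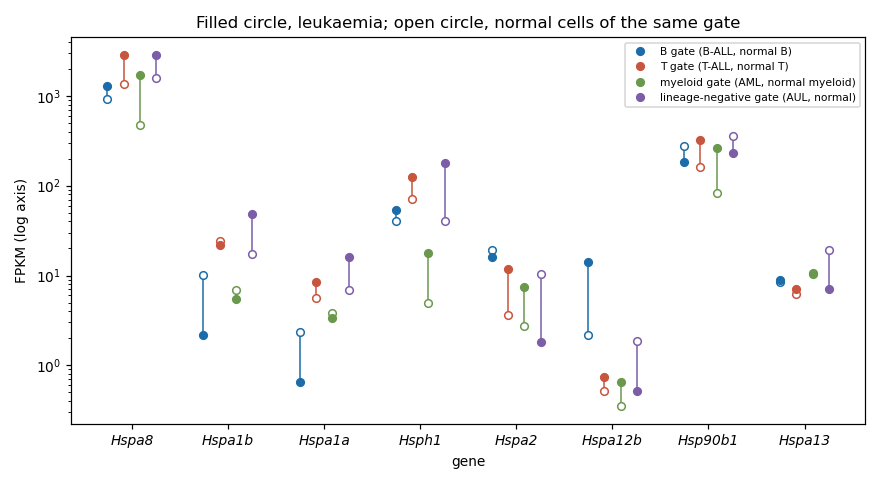
FPKM (log axis) of 8 chaperone genes; filled circles are leukaemias, open circles the normal cells of the same gate, joined by a line, and colours mark the gates. Hspa8 and Hsph1 have every filled circle above its partner, whereas Hspa1b, Hspa1a, Hspa2, Hspa12b, Hsp90b1 and Hspa13 have lines in both directions, such as Hspa1b at 2.20 in B-ALL and 48.3 in AUL.

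ER chaperones had no common direction (median 0.03). Hsp90b1, the Hsp90 of the ER, had 182, 321, 265 and 231 FPKM in the leukaemias and 279, 162, 83.4 and 353 in the normal cells (0.35, SE 0.48, limma adjusted p = 0.578). It was higher in T-ALL and AML than in their normal cells and lower in B-ALL and AUL. The mean was -0.0041 under median-ratio scaling and -0.08 without the myeloid pair. Hspa13 had 8.80, 7.04, 10.3 and 7.10 against 8.44, 6.16, 10.8 and 19.01 (-0.29, limma adjusted p = 0.629), with lineage-negative cells above the rest. Lineage-negative cells were highest for both genes and also had the highest sum of plasma cell markers (1059 FPKM). The part of plasma cells in these levels was not tested. Of 28 genes of ER folding and the unfolded protein response 21 were measured, 0 passed limma and the median was -0.22. Xbp1 and Derl3 belong both to this list and to the plasma cell markers. Canx, the lectin chaperone calnexin, was the 1 gene of them that was higher in 4 of 4 pairs (1.18, limma adjusted p = 0.110). Ppp1r15a (-1.75, 0.0631), Dnajb9 (-1.72, 0.0845) and the stress kinase gene Eif2ak3 (-1.26, 0.0791) had the lowest means of those named.

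Small heat shock genes were low in all libraries. Hspb6 had 2.71, 2.93, 2.54 and 2.04 FPKM against 3.62, 2.60, 3.31 and 5.22 (-0.38, limma adjusted p = 0.517). Hspb1, the stress-induced Hsp27, had 2.90, 0.0252, 0.0258 and 2.90 against 0.219, 0.442, 0 and 0.0490. It reached FPKM of 1 only in B-ALL and AUL, on 114 and 90 fragments, and rested on 1 fragment each in T-ALL and AML and 0 in normal myeloid cells. Hspb9 had 0.558 to 1.11 FPKM in the leukaemias and 0.111 to 0.359 in the normal cells. Of the 5 genes under the filter, Hspb8, Hspg2 and Hspa1l were under 1 FPKM in all 8 libraries, and 1778 of the 2472 exon bases of Hspa1l overlap an antisense gene. Among the names outside both families, Psmc3ip, a cofactor of meiotic recombination, had 24.1, 13.7, 27.6 and 22.9 against 10.5, 5.70, 4.67 and 22.7 (1.15, limma adjusted p = 0.127). Hspb11, a protein of intraflagellar transport, had 7.92, 5.12, 3.42 and 20.6 against 6.19, 7.82, 1.36 and 4.51 (0.66, limma adjusted p = 0.358), with AUL above the other libraries. Hspbap1 had 0.948 to 4.72 FPKM in the 8 libraries.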

How the data were processed

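RNA-seq of 8 sorted mouse bone marrow populations, 1 library per group, was analysed from a deposited table of FPKM values per gene, made by the authors. The submitters' processing notes name STAR, HTSeq, edgeR and mm10, without versions. The rule by which genes entered the table, the strandedness of counting and the number of animals are not given in the sources used here. RNA was extracted with Trizol, selected with oligo(dT), random primed and sequenced as pairs, per the labels' protocols.

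Library totals were recovered from the FPKM steps and GENCODE vM21 mean transcript lengths. Of the 3154 to 3587 values per library under 200 fragments in genes with 1 annotated transcript, 95.1% to 95.9% were whole within 0.02 of a fragment. In genes with several transcripts 68.4% to 71.6% were, so their fragment counts and intervals are approximate. Intervals (95%, exact binomial) cover counting error only.

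Values were analysed as log2(FPKM + 1). The 11071 genes at or above 1 FPKM in 2 or more libraries were fitted with limma 3.58.1 (R 4.3.3; lmFit, eBayes with trend), with the gate as a block, and adjusted by the Benjamini-Hochberg method at 0.05. The fit was tested on simulated data. Ratios were compared by an exact sign-flip permutation test (scipy 1.17.1). With 1 library per group, p-values measure the spread between the 4 pairs, which are different leukaemias rather than replicates of 1.

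The genes, lists and tests were chosen with earlier results of these data known. In each role the 2 genes with the highest and the 2 with the lowest mean difference were named if they reached 5 FPKM in any library, plus up to 4 genes of each companion list and those that passed limma. Other genes named were chosen after their values were seen. Some companion genes that the rule names are not reported here. Planned ratios of Psmb8, Psmb9 and Psmb10 to the subunits they replace could not be formed, and both ratios given were chosen after seeing the data. Alternatives were a pseudocount of 0.1, median-ratio scaling, a common FPKM sum, no filter, no gate block, a minimum FPKM of 5 in the higher library and leaving out each pair.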

Additional observations from a re-analysis of the deposited data

Results flagged for a closer look

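In 74 groups of 4 libraries (37 named genes, leukaemias and normal cells apart) 6 single libraries lay far from the other 3 by Dixon's criterion, where chance alone flags about 1 group in 20. Normal myeloid cells stood far below the other normal libraries for Cct2 (44.0 FPKM), Cct4 (64.8 FPKM), Hspe1 (24.9 FPKM) and the assembly factor Psmg4 (12.9 FPKM). AUL stood far above the other leukaemias for Hsp90aa1 (2009.5 FPKM) and Psma3 (228 FPKM).

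The difference between leukaemia and normal cells had opposite signs in different gates for 2 chaperone genes, each with 1 library per group, and the difference between gates was not tested. Hspa1b had a log2 difference of -1.80 in B-ALL and 1.43 in AUL. Hspa2 had 1.45 in the T pair, 1.17 in the myeloid pair and -2.02 in the lineage-negative pair.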

How the results depend on the processing

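The number of genes that limma called higher, 4, was 8 with a pseudocount of 0.1 and 8 with median-ratio scaling. It was 0 with a common FPKM sum, 0 without the filter on low values, 0 without the gate block and 0 to 0 with a pair left out. In these last settings 36, 38 and 37 genes, and 19 to 37 with a pair left out, had an unadjusted limma p under 0.05 in either direction. The count of lower genes was 0 in all of these settings. The gate was the pairing in the main fit, and the labels carry no replicate numbers. No paired analysis was possible beyond it because each group has 1 library.

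Median-ratio scaling moved the counts of genes at least 2-fold higher to 16 in B-ALL, 14 in T-ALL and 21 in AML, and of those at least 2-fold lower in AML to 5. A minimum FPKM of 5 moved the count of lower genes in B-ALL to 1. Of the 57 tested genes, 5 changed the sign of their mean difference in some setting, none of them called by limma. With median-ratio scaling Hsp90b1 was -0.0041, Hspa2 -0.20 and Hspa1a -0.16. Hspa1a was also -0.02 with a pseudocount of 0.1, -0.01 without the T pair and -0.22 without the lineage-negative pair. With a pair left out Hsp90b1 ranged from -0.081 (without the myeloid pair) to 0.677, Hspa13 from -0.437 to 0.053 (without the lineage-negative pair), Hspa1b from -0.740 to 0.336 (without the B pair) and Hspa2 from -0.365 (without the T pair; -0.274 without the myeloid pair) to 0.791. The cause was not tested. Counts of genes higher in every pair, 44, and without overlap, 34, stayed within 1.5 times these values in every setting run. With median-ratio scaling they were 39 and 28. Hspb1 and Psma8 rest on few fragments in most libraries.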
